A study of Homo sapiens with 14 samples.

Results

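The miR-33 family has 4 mature arms in the human genome, hsa-miR-33a-5p, hsa-miR-33a-3p, hsa-miR-33b-5p and hsa-miR-33b-3p. They were read by name from the table of miRNA counts, where they were 4 of 2848 entries, and all 4 were among the 810 entries kept by the filter on low counts. The counts came from PANC-1, an established human line from a pancreatic ductal carcinoma, grown as a monolayer in medium with serum. The cells received proanthocyanidins of grape (PA, chains of flavan-3-ol units) at 20 µg/ml for 3, 12 or 24 h, or the solvent DMSO for 0, 3, 12 or 24 h. Each of these 7 groups held 2 libraries, lettered A and B. The series calls the second library a biological replicate without stating whether the lettered libraries stem from different cultures, so the p-values measure the spread between these libraries, which may be technical.

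A miRNA hairpin is cut into 2 arms, and the arm loaded into an Argonaute protein represses mRNAs that pair with its seed, bases 2 to 8. The hairpins of miR-33 lie inside introns of the SREBF genes, which encode SREBP-2, the activator of cholesterol synthesis and uptake genes, and SREBP-1, the activator of fatty acid synthesis genes. The 5p arms are known in liver and macrophages for repressing the cholesterol exporter ABCA1 and enzymes of fatty acid oxidation such as CPT1A and CROT. Proanthocyanidins of grape seed have been studied in rat liver for their effect on miR-33a and on the liver miRNA miR-122.

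The mature sequences below, from RefSeq (GRCh38.p14), are shown because they separate the family into 1 pair that shares a seed and 2 arms that do not, with the seed in capitals.
hsa-miR-33a-5p: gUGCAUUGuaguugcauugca
hsa-miR-33b-5p: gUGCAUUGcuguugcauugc
hsa-miR-33a-3p: cAAUGUUUccacagugcaucac
hsa-miR-33b-3p: cAGUGCCUcggcagugcagccc

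The 5p arms were identical at 18 of 20 aligned bases. They differed by U9C and A10U (base of hsa-miR-33a-5p, position from 1 at the 5′ end, base of hsa-miR-33b-5p), outside the seed, and hsa-miR-33a-5p was 21 bases long against 20 for hsa-miR-33b-5p. How reads with more than 1 match were counted was not given in the sources used here, so the split of 5p reads between the family members is uncertain to that extent. Of the 2346 named entries, 2059 had a sequence in the RefSeq table. Among those, the seed UGCAUUG belonged to the 5p arms of this family alone, and AAUGUUU of hsa-miR-33a-3p belonged to no other entry. AGUGCCU of hsa-miR-33b-3p was shared with hsa-miR-515-3p and hsa-miR-519e-3p.

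The hairpins are shown whole because both arms of each were counted, with the arms in capitals.
MIR33A: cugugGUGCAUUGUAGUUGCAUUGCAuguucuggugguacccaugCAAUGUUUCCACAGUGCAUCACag
MIR33B: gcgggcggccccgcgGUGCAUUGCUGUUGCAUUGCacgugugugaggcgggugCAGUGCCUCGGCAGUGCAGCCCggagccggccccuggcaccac

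MIR33A lies at chr22:41900944-41901012 on the plus strand of GRCh38, in intron 16 (2471 bases) of the 19-exon transcript SREBF2-201, and was intronic in 2 of 2 SREBF2 transcripts that span it. MIR33B lies at chr17:17813836-17813931 on the minus strand, in intron 16 (475 bases) of SREBF1-201, and was intronic in 3 of 3 SREBF1 transcripts that span it. Both hairpins have the strand of their host gene. Another miRNA of the SREBF1 gene, MIR6777 in intron 17 of SREBF1-201, was near the limit of detection. hsa-miR-6777-5p had 4 counts in PA 3 h A and 1 in DMSO 0 h A, and hsa-miR-6777-3p had 3 and 1 counts in PA 3 h A and B. Neither entry had a count in any other library, and neither passed the filter.

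Total counts per library ran from 1032391 (DMSO 12 h B) to 3111014. By the ratio of chi-square to its degrees of freedom, libraries A and B differed most in DMSO (78.0) and PA (59.6) at 12 h. The other groups had ratios of 13.0 to 36.3. The libraries of DMSO at 12 h stood apart from the other controls: 134 of 810 entries, or 16.5%, differed between DMSO at 12 h and the mean of DMSO at 0, 3 and 24 h. This comparison was chosen because earlier results of these data had shown those libraries apart, so it is no separate test of that. DMSO at 0, 3 or 24 h was not set against the rest in this way. Because DMSO at 12 h stood apart, the 12 h values of the 4 arms and of the lipid miRNAs are given against both DMSO at 12 h and the other DMSO times. The summed level of 6 miRNAs of PANC-1 and pancreatic cancer was 271167 to 360128 CPM (the count scaled to the library total and its TMM factor) over all libraries. Most of that sum was hsa-miR-21-5p and hsa-miR-100-5p (mean 186226 and 112345 CPM), and hsa-miR-155-5p of the same list had a mean of 16.9 CPM. The 4 markers of acinar and islet cells summed to 2.17 to 10.2 CPM, and 2 hepatocyte markers, the arms of miR-122, to at most 1.17 CPM. Epithelial markers (6, mostly of the miR-200 family) summed to at most 85.8 CPM in a library and 4 haematopoietic markers to 1.64 to 6.37 CPM. The 7 fibroblast and endothelial markers summed to 819 to 1578 CPM, mostly the arms of miR-126. The 4 red blood cell markers summed to 296 to 591 CPM, mostly hsa-miR-486-5p.

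hsa-miR-33a-5p was the most abundant arm, with 4019 counts in all and 60 to 478 per library, and it ranked 188 by mean CPM among the named entries. hsa-miR-33b-3p followed with 1392 counts (33 to 213 per library, rank 277), then hsa-miR-33a-3p with 661 (8 to 78, rank 343) and hsa-miR-33b-5p with 310 (5 to 34, rank 443). Precision was thus lowest for hsa-miR-33b-5p, whose lowest library held 5 counts.

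At 12 h, 3 of the 4 arms were higher with PA than with DMSO at the same time (edgeR, adjusted p under 0.05), and hsa-miR-33b-5p did not pass. Of all 810 entries tested at 12 h, 11.1% passed, 51 higher and 39 lower, and the median log2 fold change over all was -0.06. hsa-miR-33a-5p, the arm best known for repressing ABCA1, had 205 and 174 CPM in PA 12 h A and B, against 67.1 and 54.6 CPM in DMSO 12 h A and B. Both PA libraries lay far above both DMSO libraries. The log2 fold change was 1.63 ± 0.26 (SE; edgeR adjusted p = 0.000775), a 3.08-fold difference, and 96.5% of the entries tested had a smaller one.

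hsa-miR-33a-3p, the less abundant arm of the SREBF2 hairpin, had 32.3 and 25.1 CPM in PA 12 h A and B, against 9.67 and 7.28 CPM in DMSO 12 h A and B. The log2 fold change was 1.72 ± 0.39 (edgeR adjusted p = 0.0107). It no longer passed without PA 12 h A (log2 fold change 1.58, adjusted p = 0.065) or without DMSO 12 h B (1.57, adjusted p = 0.065). Both arms of miR-33a were thus higher in PA than in DMSO at 12 h. Whether their fold changes differ was not tested.

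hsa-miR-33b-3p, the more abundant arm of the SREBF1 hairpin, had 75.6 and 62.1 CPM in PA 12 h A and B, against 18.8 and 40.9 CPM in DMSO 12 h A and B. The PA libraries were both higher, but the DMSO libraries lay far apart. The log2 fold change was 1.25 ± 0.34 (edgeR adjusted p = 0.0281). The call was lost without PA 12 h A (1.13, adjusted p = 0.119), PA 12 h B (1.43, adjusted p = 0.0672) or DMSO 12 h A (0.76, adjusted p = 0.183), and with only the 4 libraries of 12 h in the fit (1.21, adjusted p = 0.145).

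hsa-miR-33b-5p, which carries the seed of hsa-miR-33a-5p, had 15.6 and 9.16 CPM in PA 12 h A and B, against 6.26 and 4.55 CPM in DMSO 12 h A and B. The log2 fold change of 1.14 ± 0.44 did not pass (edgeR adjusted p = 0.11). Summed over the seed-sharing pair, the level averaged 202 CPM with PA and 66.2 CPM with DMSO at 12 h, and hsa-miR-33a-5p made up 92.9% and 95.0% of the pair's counts in PA 12 h A and B, against 91.5% and 92.3% in DMSO 12 h A and B. Over all 14 libraries this share ran from 87.3% (exact 95% binomial interval 80.7 to 92.3) to 96.0% (93.9 to 97.5), so the pair's level followed hsa-miR-33a-5p. Intervals cover counting error only.

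**Figure D1:**
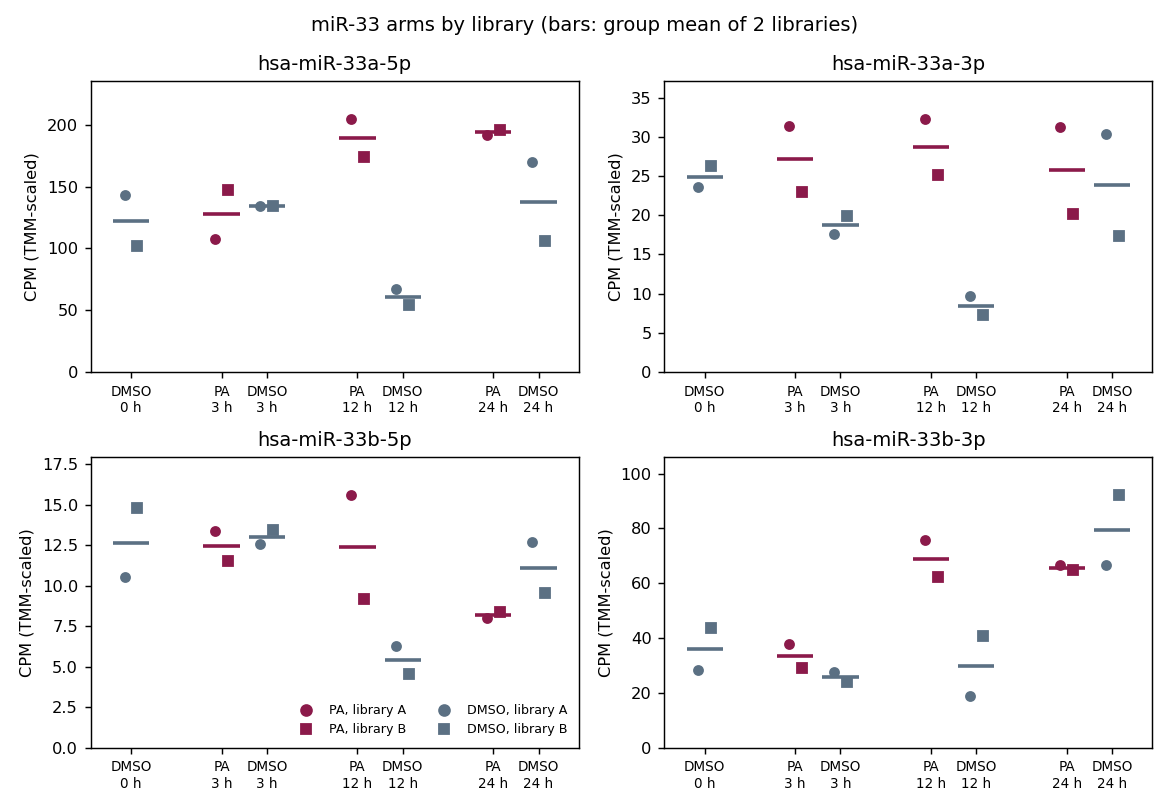
Level of each miR-33 arm in CPM (TMM-scaled, axes from 0) by treatment and time, with 1 point per library (circle A, square B) and a bar at the mean of the 2 libraries. For hsa-miR-33a-5p the DMSO 12 h libraries, at 67.1 and 54.6 CPM, lie below the other 12, which span 102 to 205 CPM.

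DMSO at 12 h was the lowest group for 3 of the 4 arms. The tests of this group against the other DMSO times were chosen with its difference already known. hsa-miR-33a-5p averaged 60.8 ± 8.88 CPM (SD, n = 2) in DMSO at 12 h, against a mean of 132 CPM (102 to 170 CPM over 6 libraries) in DMSO at 0, 3 and 24 h. That fall was -1.10 ± 0.22 on the log2 scale (edgeR adjusted p = 0.00329), and it passed without any 1 of the 14 libraries (-1.25 to -0.97). hsa-miR-33a-3p likewise fell in DMSO at 12 h, by a log2 fold change of -1.36 ± 0.35 (edgeR adjusted p = 0.0128), to 9.67 and 7.28 CPM in A and B, against 17.3 to 30.3 CPM in the 6 other DMSO libraries. This call was lost without DMSO 12 h B (-1.20, adjusted p = 0.0968). hsa-miR-33b-5p, at -1.13 ± 0.39, did not pass (edgeR adjusted p = 0.058). hsa-miR-33b-3p, at -0.53 ± 0.29, did not pass either (edgeR adjusted p = 0.238), and its value rested on DMSO 12 h A: it was -0.017 without that library (adjusted p = 0.994) and -1.15 without DMSO 12 h B, when it passed (adjusted p = 0.0388). With 2 of 4 arms called, the family stood beside a background of 16.5% of entries called in this comparison.

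Set against DMSO at 0, 3 and 24 h, PA at 12 h gave no call for any of the 4 arms by edgeR, and 0.617% of the entries tested (5 of 810) passed. At an unadjusted p under 0.05, 2 of the 4 arms were counted, hsa-miR-33a-5p and hsa-miR-33b-3p, beside 13.6% of all entries (110 of 810), and no arm passed in any other setting. hsa-miR-33a-5p had 205 and 174 CPM in PA 12 h A and B, both above the highest of the 6 DMSO libraries at 170 CPM, with a log2 fold change of 0.52 ± 0.19 (edgeR adjusted p = 0.256). That separation was lost with scaling by library totals, where PA 12 h B (172 CPM) lay below DMSO 24 h A (180 CPM). hsa-miR-33b-3p stood at 0.72 ± 0.25 (adjusted p = 0.256) and hsa-miR-33a-3p at 0.36 ± 0.27 (adjusted p = 0.579). hsa-miR-33b-5p stood at 0.01 ± 0.31 (adjusted p = 0.996), a value that was -0.026 with limma on log2(TPM + 1). This comparison joins PA with time in culture, which cannot be told apart in it. It was also chosen with earlier results of these data known. It shares the PA 12 h libraries with the comparison at 12 h.

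**Figure D2:**
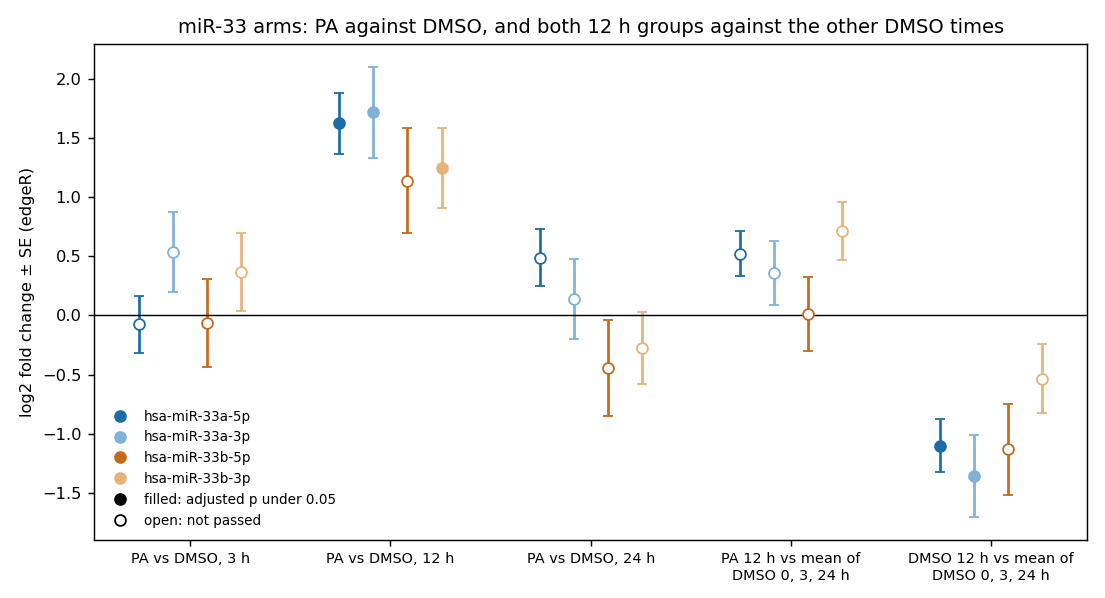
Log2 fold change (points) with its standard error (bars) from the edgeR fit for the 4 arms in 5 comparisons, filled where the adjusted p was under 0.05. hsa-miR-33a-5p stands at 1.63 in PA over DMSO at 12 h, at 0.52 in PA 12 h over the other DMSO times and at -1.10 in DMSO 12 h over the other DMSO times.

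Other sources of RNA were read beside these 12 h values. A list of 13 entries that overlap tRNA, rRNA or other small RNAs summed to 6842 and 11433 CPM in PA 12 h A and B, against 6128 and 3609 CPM in DMSO 12 h A and B. Of its 11 tested members 1 was higher and 1 lower, beside 51 and 39 of all 810 entries (11.1% called). The median log2 fold change was -0.29, against -0.06 over all entries. Most of the list's sum was hsa-miR-4454: without it the list summed to 1545 and 1262 CPM in PA 12 h A and B, against 1142 and 1361 CPM in DMSO 12 h A and B, which overlap. The 7 fibroblast and endothelial markers summed to 1327 and 1072 CPM in PA 12 h A and B, against 819 and 963 CPM in DMSO 12 h A and B, and none of the 6 tested passed, beside 11.1% of all entries. Most of that sum was the arms of miR-126. The part of these and the next lists in the miR-33 values was not tested. The 4 muscle and neuron markers, mostly hsa-miR-1, summed to 67.6 and 24.3 CPM in PA 12 h A and B, against 23.3 and 14.6 CPM in DMSO 12 h A and B. The sum of the 4 red blood cell markers went the other way, at 406 and 503 CPM in PA 12 h A and B, against 540 and 591 CPM in DMSO 12 h A and B. Nearly all of it was hsa-miR-486-5p (402 and 499 CPM with PA, 540 and 591 CPM with DMSO), which did not pass. hsa-miR-144-3p had 3.53 and 3.19 CPM with PA against 0 and 0 with DMSO and was not tested. Fewer cells of a type and less RNA per cell cannot be told apart in these bulk libraries.

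At 3 h none of the 4 arms passed (edgeR, adjusted p = 1 for each), none had an unadjusted p under 0.05 and none passed in any of the 7 other settings. Of all entries 0.247% (2 of 810) passed, and 1.73% had an unadjusted p under 0.05. hsa-miR-33a-5p had 107 and 148 CPM in PA 3 h A and B, against 134 and 134 CPM in DMSO 3 h A and B. The PA libraries lay on both sides of the DMSO libraries, and the log2 fold change was -0.07 ± 0.24. hsa-miR-33a-3p had 31.3 and 23.0 CPM in PA 3 h A and B, against 17.6 and 19.9 CPM in DMSO 3 h A and B, a log2 fold change of 0.54 ± 0.34. hsa-miR-33b-3p had 38.0 and 29.1 CPM with PA, against 27.5 and 24.0 CPM with DMSO, a log2 fold change of 0.37 ± 0.33. The PA libraries of both 3p arms lay above the DMSO libraries, without passing the test. How many of all entries separate in this way was not counted. For hsa-miR-33b-5p the log2 fold change at 3 h was -0.07 ± 0.37.

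At 24 h again none of the 4 arms passed by edgeR, at an unadjusted p under 0.05 or in the 7 other settings. Of all entries 6.67% passed (35 higher and 19 lower of 810), and 20.9% had an unadjusted p under 0.05. hsa-miR-33a-5p had 192 and 196 CPM in PA 24 h A and B, against 170 and 106 CPM in DMSO 24 h A and B. Both PA libraries were higher, and the wide DMSO pair left a log2 fold change of 0.49 ± 0.24 (edgeR adjusted p = 0.259), which was 0.88 without DMSO 24 h A and 0.21 without DMSO 24 h B. With scaling by library totals the groups overlapped, as PA 24 h A (169.7 CPM) lay below DMSO 24 h A (179.8 CPM). hsa-miR-33b-3p had 66.6 and 64.7 CPM in PA 24 h A and B, against 66.8 and 92.3 CPM in DMSO 24 h A and B, a log2 fold change of -0.28 ± 0.31 (edgeR adjusted p = 0.678). hsa-miR-33b-5p had 8.02 and 8.41 CPM in PA 24 h A and B, against 12.7 and 9.53 CPM in DMSO 24 h A and B, a log2 fold change of -0.44 ± 0.41 (edgeR adjusted p = 0.575). With 1 library left out, hsa-miR-33b-3p ran from -0.47 to -0.0034, the value nearest 0 being that without DMSO 24 h B, and hsa-miR-33b-5p from -0.61 to -0.20, and none passed. hsa-miR-33a-3p, at 0.14 ± 0.34 (edgeR adjusted p = 0.854), had no settled sign: it was -0.061 with scaling by library totals and -0.050 with limma on log2(TPM + 1).

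Whether the PA effect differed between times was tested directly. The effect on hsa-miR-33a-5p was larger at 12 h than at 3 h by 1.70 ± 0.35 on the log2 scale (edgeR adjusted p = 0.027), in a test that 1.23% of entries (10 of 810) passed. No other arm passed, with differences of 1.18, 1.21 and 0.88 for hsa-miR-33a-3p, hsa-miR-33b-5p and hsa-miR-33b-3p (adjusted p = 0.284, 0.35 and 0.427). The hsa-miR-33a-5p call was lost without PA 3 h A (1.51, adjusted p = 0.134), PA 12 h A (1.60, adjusted p = 0.113), A of DMSO 3 h (1.77, adjusted p = 0.0753), B of DMSO 3 h (1.73, adjusted p = 0.0819) or DMSO 12 h B (1.54, adjusted p = 0.0613). It passed in all 7 other settings.

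The PA effect at 24 h minus that at 12 h was -1.58 to -1.14 on the log2 scale over the 4 arms, and 1 arm passed, beside 8.64% of entries (70 of 810). This was hsa-miR-33b-3p, at -1.52 ± 0.46 (edgeR adjusted p = 0.0489). The call held in 3 of 7 other settings and in 1 of 14 fits that left out a library, the one without DMSO 12 h B (-2.15, adjusted p = 0.00767), and leaving out any other library ended it. Without DMSO 12 h A the value was -1.02 (adjusted p = 0.15). hsa-miR-33a-5p stood at -1.14 ± 0.35 (edgeR adjusted p = 0.0562), hsa-miR-33a-3p at -1.58 ± 0.52 (adjusted p = 0.0722) and hsa-miR-33b-5p at -1.58 ± 0.60 (adjusted p = 0.118). Between 24 h and 3 h, a comparison chosen after the data were seen, the PA effect differed by -0.65 to 0.56 over the 4 arms and none passed (edgeR adjusted p = 0.585 to 0.877), beside 1.23% of entries. None of the 4 had an unadjusted p under 0.05 there, and none passed in the 7 other settings.

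Averaged over 3, 12 and 24 h on the 12 libraries of those times, the PA effect was 0.66 ± 0.23 for hsa-miR-33a-5p (edgeR adjusted p = 0.221), 0.73 ± 0.27 for hsa-miR-33a-3p (adjusted p = 0.228), 0.16 ± 0.29 for hsa-miR-33b-5p (adjusted p = 0.866) and 0.41 ± 0.25 for hsa-miR-33b-3p (adjusted p = 0.49). None of the 4 passed, and neither did any entry of the 808 tested (0%), of which 118 had an unadjusted p under 0.05. This fit held no term for a PA effect that differs between times, so such differences entered its spread. DESeq2 called 21 entries and limma 2. Without the filter on low counts hsa-miR-33a-5p passed, at 0.69 (edgeR adjusted p = 0.0241).

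**Figure D3:**
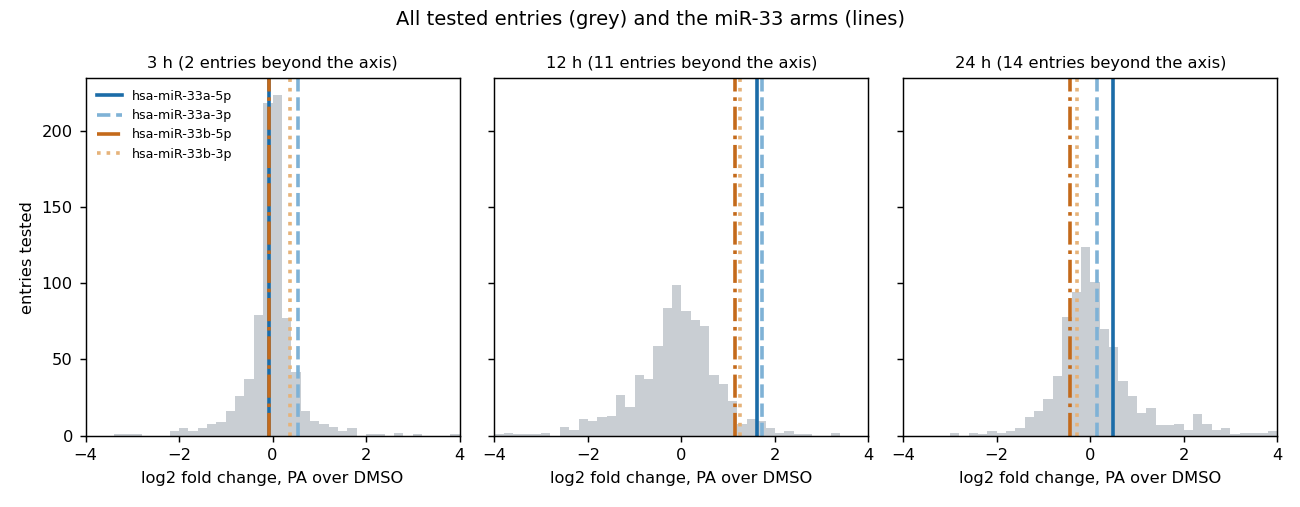
Number of entries tested (grey bars) by log2 fold change of PA over DMSO at 3, 12 and 24 h, with a line for each miR-33 arm. At 12 h all 4 lines, from 1.14 to 1.72, stand right of at least 93.5% of the entries, and at 3 h they lie between -0.07 and 0.54.

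The groups were then ordered by level for each arm. Of the 7 groups, PA at 24 h (194 ± 3.01 CPM, SD, n = 2) and PA at 12 h (189 ± 22.0 CPM) had the highest mean hsa-miR-33a-5p, DMSO at 12 h the lowest, and the other 4 lay between 123 and 138 CPM. In that order, 2 steps exceeded the larger SD of the neighbours with no overlap of libraries, the one below PA at 12 h and the one above DMSO at 12 h. With scaling by library totals the upper step was not free of overlap, as DMSO 24 h A (180 CPM) exceeded PA 12 h B (172 CPM). For hsa-miR-33a-3p the one step beyond the larger SD with no overlap set DMSO at 12 h (8.47 ± 1.69 CPM) below DMSO at 3 h (18.7 ± 1.63 CPM). The other 6 groups, at 18.7 to 28.7 CPM, formed no separate levels. For hsa-miR-33b-5p such steps lay above PA at 24 h (8.21 ± 0.275 CPM) and below it, above DMSO at 12 h (5.40 ± 1.21 CPM), with the other 5 groups at 11.1 to 13.0 CPM.

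For hsa-miR-33b-3p there was 1 such step, between upper and lower groups. The upper groups were PA at 12 h (68.9 ± 9.55 CPM), PA at 24 h (65.6 ± 1.28 CPM) and DMSO at 24 h (79.6 ± 18.0 CPM). The lower groups were PA at 3 h (33.6 ± 6.29 CPM), DMSO at 0 h (36.0 ± 10.6 CPM), DMSO at 3 h (25.7 ± 2.50 CPM) and DMSO at 12 h (29.8 ± 15.7 CPM). At 12 h PA thus belonged to the upper groups and DMSO to the lower, and at 24 h both belonged to the upper.

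Within a treatment, tests chosen after the data were seen compared 24 h with 3 h. In DMSO, hsa-miR-33b-3p was higher at 24 h, with 66.8 and 92.3 CPM in A and B, against 27.5 and 24.0 CPM at 3 h. The log2 fold change was 1.62 ± 0.32 (edgeR adjusted p = 0.0294), and it was the third smallest p of 810 entries, of which 1.23% passed. The call was lost without any 1 of these libraries, A at 24 h (1.83, adjusted p = 0.115), B at 24 h (1.37, adjusted p = 0.371), A at 3 h (1.72, adjusted p = 0.229) or B at 3 h (1.50, adjusted p = 0.187), and it held in all 7 other settings. In PA, hsa-miR-33b-3p at 24 h over 3 h stood at 0.97 ± 0.32 (edgeR adjusted p = 0.105), beside 3.95% of entries called. It passed without DMSO 12 h A (0.98, adjusted p = 0.0393) or DMSO 12 h B (0.95, adjusted p = 0.0428), libraries of neither group compared. The other 3 arms passed in neither treatment, with log2 fold changes of -0.60 to 0.60 in PA and -0.22 to 0.36 in DMSO. PA at 12 h against the mean of PA at 3 and 24 h gave no call for the 4 arms (0.10 to 0.55, edgeR adjusted p = 0.669 to 0.946), nor an unadjusted p under 0.05, nor a call in the 7 other settings, and 0.370% of entries passed.

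By counts, the dominant arm was the 5p arm in miR-33a and the 3p arm in miR-33b. hsa-miR-33a-5p took 77.4% (PA 3 h A) to 90.7% (PA 24 h B) of the counts of its hairpin, 85.8% ± 3.46 (SD, n = 14), and 4019 of 4680 counts in all. hsa-miR-33b-5p took 18.2% of the counts of its hairpin, 310 of 1702. The arm shares depend on the split of 5p reads between miR-33a and miR-33b, which is uncertain as stated above. Over the libraries the 5p share of miR-33b spanned 9.36% to 35.9%.

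The 5p share of miR-33b was 26.0% and 28.3% in PA 3 h A and B, 17.1% and 12.8% in PA 12 h A and B, and 10.8% and 11.5% in PA 24 h A and B. For DMSO the pair A and B showed a 5p share of 27.0% and 25.4% before exposure (0 h), of 31.4% and 35.9% after 3 h, of 25.0% and 10.0% after 12 h and of 16.0% and 9.36% after 24 h. All 6 libraries of PA 3 h, DMSO 0 h and DMSO 3 h were above all 4 libraries of 24 h, in both treatments. The exact 95% binomial interval was 6.69% to 16.1% for PA 24 h A and 22.7% to 41.2% for DMSO 3 h A, and it was widest for DMSO 12 h A, 13.2% to 40.3% of 44 counts. The shares themselves were not tested. Of the arms behind them, hsa-miR-33b-3p at 24 h over 3 h passed in DMSO and not in PA, and hsa-miR-33b-5p passed in neither.

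**Figure D4:**
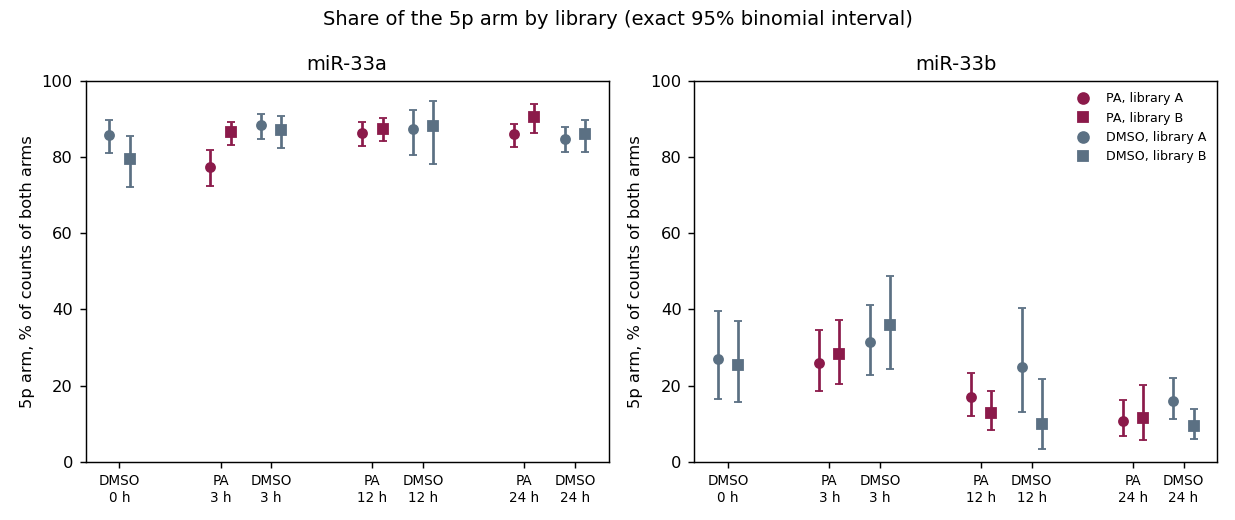
Share of the 5p arm among the counts of both arms of miR-33a and of miR-33b in each library (points), with the exact 95% binomial interval (bars). The miR-33a share stays between 77.4% and 90.7%, while the miR-33b share is 25.4% to 35.9% in PA 3 h, DMSO 0 h and DMSO 3 h and 9.36% to 16.0% at 24 h.

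Likeness to hsa-miR-33a-5p was measured as Pearson's r of log2 CPM over the 14 libraries, which share their depth and scaling with it, among 452 named entries with a mean of at least 10 CPM. The median r was 0.0797, and 95 entries had r above 0.5. The 5 highest were hsa-miR-210-3p (r = 0.926), hsa-miR-27a-3p (0.915), hsa-miR-96-5p (0.902), hsa-miR-9-3p (0.892) and hsa-miR-34a-5p (0.886). Without the DMSO 12 h libraries, over 12 libraries, r was 0.805 for hsa-miR-210-3p and 0.688 to 0.719 for the other 4. Within the family r was 0.805 for hsa-miR-33a-3p, 0.535 for hsa-miR-33b-5p and 0.455 for hsa-miR-33b-3p, and without DMSO 12 h 0.317, -0.339 and 0.346. Each of these values was lower without the DMSO 12 h libraries.

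Lists of other miRNAs of cholesterol and fatty acid control held 26 members, of which 22 were tested. At 12 h, 8 of the 22 were higher with PA and 2 lower, beside 51 and 39 of all 810 entries. Of those 8, 3 came from 1 cluster, that of miR-183, miR-96 and miR-182, so members are not independent. Whether the lists differ from all entries was not tested. At 24 h 1 was higher and 2 lower, beside 35 and 19 of all entries, and at 3 h 0 passed in either direction, beside 2 and 0. Against DMSO at 0, 3 and 24 h, 0 of the 22 passed in PA at 12 h by edgeR, with 2 at an unadjusted p under 0.05, beside 5 and 110 of all 810 entries. DMSO at 12 h against the same controls had 2 of the 22 higher and 6 lower, beside 72 and 62 of all 810 entries. These comparisons share libraries with that at 12 h. Of 15 miRNAs that repress ABCA1 in other cells, 13 were tested, with a median log2 fold change of -0.07 at 3 h, 0.36 at 12 h and -0.10 at 24 h, against -0.01, -0.06 and -0.01 over all entries. Those higher at 12 h were hsa-miR-27a-3p (0.94, edgeR adjusted p = 0.000471), hsa-miR-27b-3p (0.57, adjusted p = 0.0225), hsa-miR-130b-3p (0.63, adjusted p = 0.0342) and hsa-miR-301b (0.91, adjusted p = 0.0409). hsa-miR-128-3p, which also represses the LDL receptor, was lower (-0.48, adjusted p = 0.0498).

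hsa-miR-27a-3p was far more abundant than miR-33a, with 77317 and 81601 CPM in PA 12 h A and B, against 45386 and 37415 CPM in DMSO 12 h A and B. Its mean in DMSO at 0, 3 and 24 h was 69600 CPM, from which PA at 12 h stood 0.19 higher (edgeR adjusted p = 0.486) and DMSO at 12 h was lower (-0.75, adjusted p = 0.000804). Over the same controls hsa-miR-130b-3p stood at -0.19 in PA at 12 h (adjusted p = 0.578) and was lower in DMSO at 12 h (-0.81, adjusted p = 0.00191). hsa-miR-301b stood at -0.017 in PA at 12 h (adjusted p = 0.975) and was lower in DMSO at 12 h (-0.93, adjusted p = 0.0116). Neither was thus above the other controls with PA. hsa-miR-27b-3p (0.22 in PA at 12 h and -0.34 in DMSO at 12 h) and hsa-miR-128-3p (-0.14 and 0.34) passed in neither. At 24 h hsa-miR-27a-3p was still higher with PA (0.55, edgeR adjusted p = 0.0246), while hsa-miR-20a-5p (-0.84, adjusted p = 0.0229) and hsa-miR-93-5p (-0.68, adjusted p = 0.0351) were lower.

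Of 7 miRNAs linked to SREBP and lipoprotein receptors, 6 were tested, with a median of 0.47 at 12 h and 0.35 at 24 h. The cluster of miR-183, miR-96 and miR-182, which SREBP-2 is known to activate in mouse liver, gave the 3 calls at 12 h: hsa-miR-96-5p (2.39, edgeR adjusted p = 0.000284), hsa-miR-183-5p (1.25, adjusted p = 0.0024) and hsa-miR-182-5p (0.57, adjusted p = 0.0422). hsa-miR-96-5p had 5815 and 7726 CPM in PA 12 h A and B, against 1639 and 938 CPM in DMSO 12 h A and B, beside a mean of 4150 CPM in the other DMSO groups. Over those groups it stood at 0.73 in PA at 12 h (edgeR adjusted p = 0.189) and was lower in DMSO at 12 h (-1.66, adjusted p = 0.00113). hsa-miR-183-5p (0.74 in PA at 12 h and -0.51 in DMSO at 12 h) and hsa-miR-182-5p (0.25 and -0.33) passed in neither. Of 4 liver lipid miRNAs, 3 were tested (median -0.018 at 12 h and -0.12 at 24 h), and hsa-miR-34a-5p was higher at 12 h (1.12, adjusted p = 0.0108) and hsa-miR-370-3p lower (-1.27, adjusted p = 0.0107). Over the other DMSO times they stood at 0.25 and -0.064 in PA at 12 h, neither passing, and at -0.87 and 1.20 in DMSO at 12 h, both passing (adjusted p = 0.012 and 0.00161). hsa-miR-122-5p, the liver miRNA studied with miR-33a under proanthocyanidins, had 5 counts in all 14 libraries and was not tested.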

How the data were processed

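The authors deposited whole-number read counts per mature miRNA entry and library, and the same values as TPM, each count divided by 1 total per library with no length correction (within 0.006% of the column sum). The submitters' processing notes name the tools bcl2fastq, Bowtie and edgeR, and the build GRCh38. Not given in the sources used here are their versions, the annotation release, the use of strand and the rule for multiply mapped reads. Each of the 28 columns of values bore the title of a library.

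The main test was the robust quasi-likelihood F test of edgeR 4.0.16 (R 4.3.3), with TMM scaling and a filter on low counts (filterByExpr by group, min.count 10, min.total.count 15). The 14 libraries entered 1 fit by group (810 entries). The mean PA effect was fitted on the 12 libraries of 3, 12 and 24 h with time as a factor (808 entries). All p-values were adjusted over every entry tested by the Benjamini-Hochberg method, with a threshold of 0.05. The fit by group was checked on simulated counts, with known changes planted only in well-counted entries of PA at 12 h. Every entry was simulated with the same spread, so the check does not cover low-count arms such as hsa-miR-33b-5p. CPM are counts over library total times TMM factor. The common coefficient of variation was 0.203, and no pair of libraries agreed within counting error (ratio of chi-square to its degrees of freedom 13.0 to 78.0). The 12 h pairs had the highest ratios, and the fit shares the spread of an entry over all groups. The errors of the 12 h values may thus be understated. Replicate letters did not pair libraries across groups.

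Alternatives were scaling by library totals or DESeq2 size factors, the DESeq2 1.42.0 Wald test, no filter, the letter as a block, limma 3.58.1 on log2(TPM + 1), only the groups compared, and each library left out. The members, lists, named entries (all 4 arms, the 5 most like hsa-miR-33a-5p, list members that passed, and entries of the same host gene or seed) and tests were chosen with earlier results of these data known. Mature and hairpin sequences came from the RefSeq table (4 of 4 matched) and host transcripts from the GENCODE annotation of GRCh38.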

Additional observations from a re-analysis of the deposited data

Results flagged for a closer look

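The PA effect on hsa-miR-33a-5p differed between 12 h and 3 h by 1.70 ± 0.35 on the log2 scale, by the edgeR test of the difference itself (adjusted p = 0.027). It was 1.63 at 12 h and -0.07 at 3 h. The PA effect on hsa-miR-33b-3p differed between 24 h and 12 h by -1.52 ± 0.46 (edgeR adjusted p = 0.0489). It was -0.28 at 24 h and 1.25 at 12 h. Both differences use the DMSO 12 h libraries. Leaving out single libraries ended the first call in some fits and the second in most, as given above. The first held in 7 of 7 other settings and the second in 3 of 7. They stood beside 1.23% and 8.64% of entries called.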

How the results depend on the processing

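Over 48 results of the 4 arms, 314 of 329 values under other settings kept their direction and their side of the threshold, and 614 of 664 did so with 1 library left out. DESeq2 gave no adjusted p for 3 of these tests. Most of the results had not passed, so most kept values belonged to results that stayed uncalled. With each library left out in turn, only 2 calls were kept throughout. They were hsa-miR-33a-5p in PA over DMSO at 12 h and in DMSO at 12 h over the other DMSO times. hsa-miR-33a-5p at 12 h passed in 7 of 7 other settings (1.57 to 1.74) and without any 1 of the 14 libraries (1.50 to 1.80). Low counts limited hsa-miR-33b-5p most. Where an arm of a comparison was left with 1 library, that library was taken to vary like the other groups. The causes of the changes below were not tested.

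Scaling by library totals gave -0.061 for hsa-miR-33a-3p at 24 h, and brought the difference of 24 h minus 12 h past the threshold for hsa-miR-33a-5p (-1.28, adjusted p = 0.0298) and hsa-miR-33a-3p (-1.74, adjusted p = 0.0427). limma gave -0.050 for hsa-miR-33a-3p at 24 h and -0.026 for hsa-miR-33b-5p in PA 12 h over the other DMSO times, and brought past the threshold the 24 h minus 12 h difference of hsa-miR-33a-5p (-1.23, adjusted p = 0.0395) and hsa-miR-33a-3p (-1.66, adjusted p = 0.0405) and the fall of hsa-miR-33b-5p in DMSO at 12 h (-1.02, adjusted p = 0.036). Without the filter, hsa-miR-33a-5p passed for the mean effect (0.69, adjusted p = 0.0241) and for 24 h minus 12 h (-1.28, adjusted p = 0.0152). For hsa-miR-33b-3p, 24 h minus 12 h no longer passed with DESeq2 size factors (-1.44, adjusted p = 0.0758), DESeq2 (-1.43, adjusted p = 0.0683), the replicate block (-1.53, adjusted p = 0.0588) or only the groups compared (-1.53, adjusted p = 0.13), and at 12 h it no longer passed with only the groups compared (1.21, adjusted p = 0.145). Library totals or the deposited TPM moved 5 of 28 group means by more than their SD, such as hsa-miR-33a-5p in PA 24 h at 179.

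The letters did not pair libraries: over 21 pairs of groups the correlation of same-letter deviations was -0.165 to 0.114, above 0.1 in 1. With the replicate block the number of entries called became 2 for PA 12 h over the other DMSO times and 1 for PA 12 h over PA at the other times, and hsa-miR-33b-3p was the only arm whose call changed.

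Entries called with only the groups compared were 1 at 3 h, 33 at 12 h, 43 for 24 h minus 12 h, 28 for PA 12 h over other DMSO, 20 for PA 24 h over 3 h and 41 for DMSO 24 h over 3 h. DESeq2 called 21 for the mean effect, 24 for 12 h minus 3 h, 18 for PA 12 h over other DMSO, 7 for PA 12 h over other PA, 20 for DMSO 24 h over 3 h and 17 for 24 h minus 3 h. Without the filter these 6 counts were 16, 19, 16, 9, 18 and 21. limma called 2 for the mean effect, 2 for PA 12 h over other DMSO and 0 for PA 12 h over other PA. Library totals gave 2 and 1 for these last comparisons, and DESeq2 size factors gave 2 for PA 12 h over other DMSO.

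Leaving out each library gave log2 values of -0.30 to 0.13 (hsa-miR-33a-5p) and -0.18 to 0.061 (hsa-miR-33b-5p) at 3 h. At 12 h they were 1.57 to 1.97 (hsa-miR-33a-3p) and 0.76 to 1.88 (hsa-miR-33b-3p), and at 24 h -0.22 to 0.62 (hsa-miR-33a-3p). For 12 h minus 3 h hsa-miR-33a-5p ran from 1.51 to 1.99. For 24 h minus 12 h the ranges were -1.46 to -0.76 (hsa-miR-33a-5p), -1.96 to -1.13 (hsa-miR-33a-3p) and -2.15 to -1.02 (hsa-miR-33b-3p). For 24 h minus 3 h hsa-miR-33a-3p ran from -0.78 to 0.067. In DMSO at 12 h over other DMSO they were -1.59 to -1.20 (hsa-miR-33a-3p) and -1.15 to -0.017 (hsa-miR-33b-3p). For PA 12 h hsa-miR-33b-5p ran from -0.39 to 0.38 over other DMSO and -0.15 to 0.65 over other PA, where hsa-miR-33a-3p ran from -0.10 to 0.29. For PA 24 h over 3 h the ranges were -0.44 to 0.21 (hsa-miR-33a-3p) and 0.78 to 1.19 (hsa-miR-33b-3p). For DMSO 24 h over 3 h they were -0.34 to 0.34 (hsa-miR-33a-5p), -0.11 to 0.70 (hsa-miR-33a-3p) and 1.37 to 1.83 (hsa-miR-33b-3p).

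Counts of entries called ran, with 1 library left out, from 1 to 2 at 3 h, 34 to 107 at 12 h, 12 to 71 at 24 h, 0 to 2 for the mean effect, 0 to 39 for 12 h minus 3 h, 28 to 118 for 24 h minus 12 h and 3 to 19 for 24 h minus 3 h. They ran from 79 to 148 for DMSO 12 h over other DMSO, 2 to 15 for PA 12 h over other DMSO, 0 to 16 for PA 12 h over other PA, 1 to 49 for PA 24 h over 3 h and 0 to 23 for DMSO 24 h over 3 h. The lowest 12 h counts were 34 without PA 12 h B, 42 without PA 12 h A and 45 without DMSO 12 h B.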
